A study of Arabidopsis thaliana with 12 samples.

Results

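PIFI (AT3G15840) and LPA19 (AT1G05385) are nuclear genes for chloroplast proteins of photosynthesis, measured here in wild-type Arabidopsis thaliana of the ecotype Wassilevskija. One group of 6 samples had spent 6 h in 60 mM sucrose made up in MS, the mineral salts of Murashige and Skoog used to culture plant tissue. The other group of 6 was labelled water, with no time. All 12 samples shared the wild-type background, and the groups therefore differed by the salts as well as the sugar. The sources used here give neither plant organ nor age, nor the array type or how long the water samples stayed in water. Each gene had exactly 1 probe annotated to it alone, among 692 such probes on an array of 3439. The genes were chosen by their measured difference between MS with sucrose and water, in the same 12 samples. That difference is therefore described below without a test.

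PIFI takes its name from the post-illumination rise of chlorophyll fluorescence, which is lost in plants without the gene. The rise reflects electrons that reach the plastoquinone pool in the dark through the chloroplast NDH complex, a route known as chlororespiration. The same complex carries electrons around photosystem I in the light. LPA19 is a thylakoid lumen protein related to Psb27 of cyanobacteria, and it aids the trimming of the D1 precursor during assembly of photosystem II. No protein or promoter sequences of either gene are shown, because the tables used here hold none.

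PIFI was brighter after MS with sucrose in every sample. Its deposited intensity, in arbitrary units, ran from 0.741 to 1.43 with a median of 0.824 in MS with sucrose, against 0.343 to 0.420 with a median of 0.412 in water. The groups did not overlap, and the lowest sample of MS with sucrose was 1.76 times the highest water sample. Such separation with MS with sucrose higher was found for 233 of the 692 probes of 1 gene (33.7%), so it was common on this array, where most probes were brighter after MS with sucrose. The mean was 0.968 ± 0.280 in MS with sucrose and 0.402 ± 0.0294 in water (SD, n = 6 each), a ratio of 2.41. In such bulk RNA, more RNA of a gene per cell and more cells that express it cannot be told apart.

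LPA19 was dimmer on average after MS with sucrose, but in deposited intensity its groups overlapped. It ran from 0 to 0.331 with a median of 0.130 in MS with sucrose, against 0.198 to 0.250 with a median of 0.211 in water. Of the 6 samples of MS with sucrose, 4 lay below the lowest water sample and 1, sample 1, lay above the highest. Sample 5 of MS with sucrose was listed at 0, and what a 0 stands for is not stated. The mean was 0.150 ± 0.117 in MS with sucrose and 0.218 ± 0.0184 in water (SD, n = 6 each), a ratio of 0.686. In deposited intensity, 3 of the 6 samples of MS with sucrose and 0 of the 6 water samples were under 0.143, the lower quartile of all values above 0. This cutoff was the same for both groups and does not allow for the brighter arrays of MS with sucrose. By its position within the array, given below, LPA19 was lower in all 6 samples of MS with sucrose than in any water sample.

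**Figure D1:**
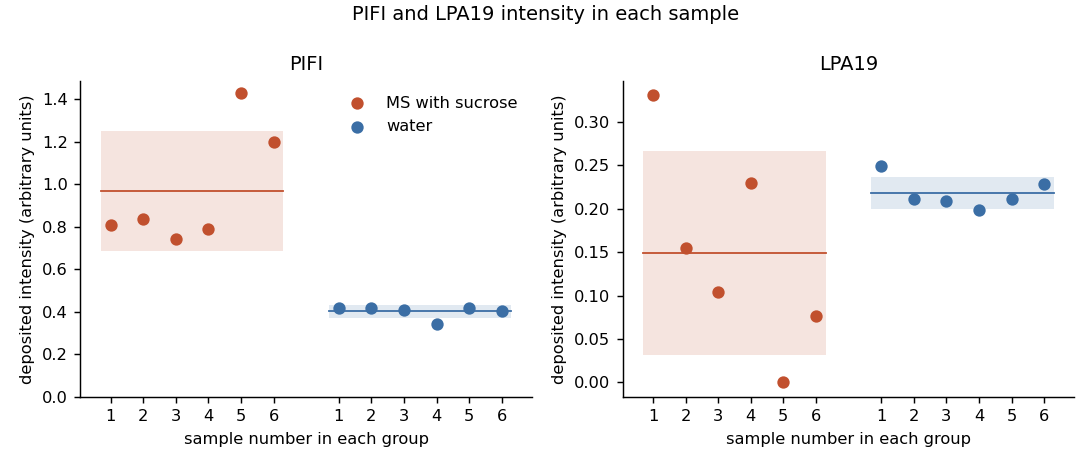
Deposited intensity (arbitrary units) of PIFI and LPA19 in the 6 samples of MS with sucrose and the 6 of water, by sample number; lines are group means and bands 1 SD. All PIFI points of MS with sucrose, from 0.741 to 1.43, lie above water, while the LPA19 points of MS with sucrose spread from 0 to 0.331 around a narrow water group.

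The array as a whole was brighter after MS with sucrose, with sample medians of 0.309 to 0.339 in MS with sucrose and 0.171 to 0.188 in water. Values were therefore compared as log2(intensity + 0.0718), with the offset at the 10th percentile of values above 0, after quantile normalization. On that scale a difference is relative to the other probes, and changes of dim probes are understated. PIFI averaged -0.23 ± 0.39 in MS with sucrose and -0.77 ± 0.08 in water (SD, n = 6 each), a log2 difference of 0.54 (SE 0.16) or 1.46-fold. LPA19 averaged -2.57 ± 0.77 in MS with sucrose and -1.45 ± 0.09 in water (SD, n = 6 each), a log2 difference of -1.13 (SE 0.30), or 2.18-fold lower. Among 691 genes that had their own probe, PIFI had the 125th highest difference and LPA19 the 23rd lowest.

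The position of each gene within its own array can be read without any scaling. Quantile normalization rests on the same positions, so agreement of the position with the normalized scale was fixed in advance. PIFI was at or above 79.3% to 90.7% of the probes in the samples of MS with sucrose, and at or above 72.4% to 77.1% in the water samples. LPA19 was at or above 12.04% to 52.3% of the probes in the samples of MS with sucrose, and at or above 54.4% to 62.9% in the water samples. By this position, and on the normalized scale, the 6 LPA19 values of MS with sucrose lay below all 6 water values. This separation was found for 85 of the 692 probes of 1 gene (12.3%) on either measure. Sample 1 of MS with sucrose thus had a higher LPA19 intensity than any water sample, but a lower place in its array.

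Limma's test across all probes called 257 of the 692 probes of 1 gene (37.1%) at an adjusted p under 0.05, 139 of them higher (20.1%) and 118 lower (17.1%) after MS with sucrose. PIFI was among the higher and LPA19 among the lower, which their selection fixed in advance. The split depends on the scaling: it was 320 higher and 44 lower without normalization, and 115 higher and 233 lower when each sample was centred on its median. Without normalization LPA19 was not called, where 52.6% of the probes of 1 gene were called. Its difference was -0.58 (SE 0.34), while that of PIFI was 1.10 (SE 0.15) and the median of all probes 0.38. Relative to that median, the differences were 0.71 for PIFI and -0.97 for LPA19.

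Both genes were far more variable after MS with sucrose than in water. For PIFI the coefficient of variation of the intensity was 29.0% in MS with sucrose and 7.32% in water. For LPA19 it was 78.5% in MS with sucrose and 8.42% in water. On the normalized scale the SD in MS with sucrose was 4.56 times that in water for PIFI and 8.17 times for LPA19. A larger SD in MS with sucrose was common, seen for 499 of 627 genes with an SD above 0 in water (79.6%), with a median ratio of 1.75. A higher ratio than that of PIFI was found for 39 of the 627 genes (6.22%), and than that of LPA19 for 8 (1.28%).

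**Figure D2:**
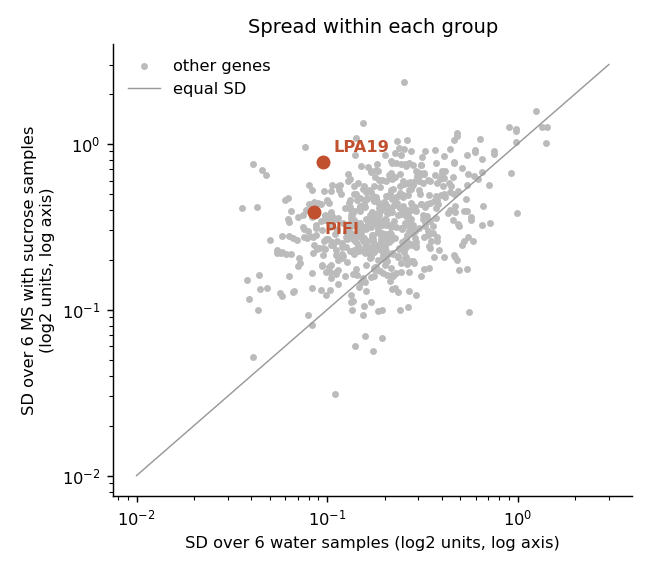
SD over the 6 samples of MS with sucrose (vertical) against SD over the 6 water samples (horizontal), in log2 units after quantile normalization on log axes. There is 1 point per gene with a probe of its own and an SD above 0 in both groups. PIFI and LPA19, in red, lie well above the line of equal SD, at ratios of 4.56 and 8.17.

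For PIFI the excess spread came with samples 5 and 6 of MS with sucrose, while for LPA19 much of it was also present without them. Over samples 1 to 4, the SD of PIFI on the normalized scale was 0.07 in MS with sucrose and 0.10 in water (n = 4 each). That of LPA19 was 0.49 in MS with sucrose and 0.10 in water (n = 4 each), a ratio of 4.73. In MS with sucrose, samples 5 and 6 held the highest PIFI intensities, 1.43 and 1.20, against 0.741 to 0.838 in samples 1 to 4. The same samples held the lowest LPA19 intensities, 0 and 0.0768, against 0.105 to 0.331 in samples 1 to 4. Water samples 5 and 6 did not stand apart for either gene, at 0.416 and 0.406 for PIFI and at 0.211 and 0.229 for LPA19. Samples 5 and 6 of MS with sucrose were both above samples 1 to 4 for 108 of the 691 genes (15.6%) and both below them for 86 (12.4%). In water the same was found for 137 genes (19.8%) above and 66 (9.55%) below, so such genes were found in both groups. Other adjacent numbers were not counted this way, so the counts cannot show whether samples 5 and 6 are special. What the sample numbers mean is not stated, and the part of culture, extraction or array in this pattern was not tested.

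Taken by adjacent numbers, each gene kept its direction on the normalized scale. The groups of either gene did not overlap on that scale, so this was fixed in advance. The log2 difference of PIFI was 0.29 for numbers 1 and 2, 0.29 for numbers 3 and 4, and 1.05 for numbers 5 and 6. That of LPA19 was -0.58 for numbers 1 and 2, -0.94 for numbers 3 and 4, and -1.86 for numbers 5 and 6. Within the 6 same-numbered pairs, PIFI was 1.82 to 3.44 times as bright after MS with sucrose as in water. LPA19 intensity was higher after MS with sucrose in pairs 1 and 4, at ratios of 1.32 and 1.16, and lower in the other 4. Without numbers 5 and 6 of both groups, refitted on 8 samples, the difference of PIFI was 0.29 (SE 0.07) and that of LPA19 -0.75 (SE 0.24). Both were still called there, where 33.2% of the probes of 1 gene were called. Calls on part of the samples that chose the genes are not a separate check of them. Neither gene was called when adjacent numbers were averaged to 3 values a group, where 21.8% of the probes of 1 gene were called. Averaging equal numbers of samples cannot change the differences, which were again 0.54 (SE 0.22) for PIFI and -1.13 (SE 0.38) for LPA19. PIFI was not called without numbers 1 and 2, at a larger difference of 0.66 (SE 0.21), where 30.3% of the probes of 1 gene were called. LPA19 was not called without numbers 3 and 4, at -1.24 (SE 0.44), where 26.7% were.

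PSB27 (AT1G03600), the other Psb27-type gene with a probe of its own, is known for a part in the recovery of photosystem II from light damage. Its intensity ran from 0.291 to 2.61 with a median of 1.27 in MS with sucrose, against 0.389 to 1.05 with a median of 0.888 in water. The range in MS with sucrose covered the whole water range. The log2 difference was 0.10 (SE 0.48, adjusted p = 0.905 by limma), and whether it differs from that of LPA19 was not tested. In MS with sucrose, samples 5 and 6 were the highest for PSB27, at 1.91 and 2.61, where LPA19 was lowest. Unlike LPA19, PSB27 was also highest in samples 5 and 6 of water, at 1.03 and 1.05, and it was lowest in samples 1 and 2 of both groups.

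**Figure D3:**
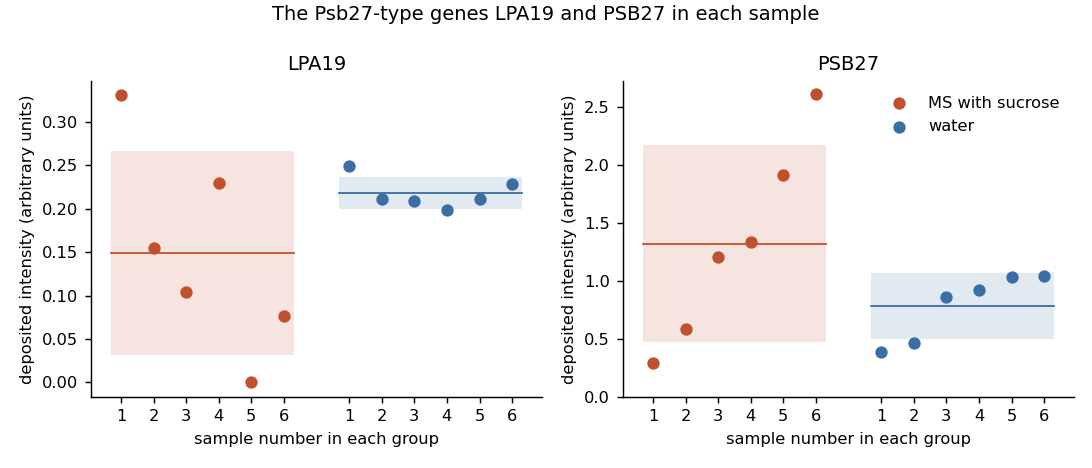
Deposited intensity (arbitrary units, separate axes) of LPA19 and PSB27 in the 6 samples of MS with sucrose and the 6 of water, by sample number, with group means and 1 SD bands. In MS with sucrose, samples 5 and 6 are lowest for LPA19, at 0 and 0.0768, and highest for PSB27, at 1.91 and 2.61.

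Around PIFI, 3 other genes of the NDH complex and chlororespiration had a probe of their own, of a list of 34 genes, and limma called 0 of the 3. NdhS (AT4G23890), the subunit at the ferredoxin-binding site, averaged 6.27 ± 1.09 in MS with sucrose and 5.83 ± 0.744 in water (SD, n = 6 each), a log2 difference of 0.07 (SE 0.14, adjusted p = 0.743 by limma). CRR21 (AT5G55740), a pentatricopeptide repeat protein that edits the ndhD transcript, was at -0.18 (SE 0.23, adjusted p = 0.568 by limma). The gene of another subunit, NdhN (AT5G58260), was listed at 0 in 5 of 6 samples of MS with sucrose and in 5 of 6 water samples, so it holds almost no information. The median difference of the 3 was 0.07, beside 0.02 over the 691 genes. Under median centring NdhS (-0.57, adjusted p = 0.00219 by limma) and NdhN (-0.50, adjusted p = 0.0338 by limma) turned to lower and were called; that centring shifts a probe at 0 down with the array median.

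Around LPA19, 3 other genes of photosystem II assembly and repair had a probe of their own, of a list of 47, and limma called 0 of the 3. Beside PSB27 these were AT5G46390, at -0.63 (SE 0.45, adjusted p = 0.307 by limma), and AT1G54500, at -0.23 (SE 0.16, adjusted p = 0.307 by limma). AT5G46390 was listed at 0 in 1 sample of MS with sucrose and otherwise reached 0.479 there, against 0.103 to 0.364 in water. The median difference of the 3 was -0.23.

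In the neighbouring steps of the pathway, 1 gene was called lower and 1 higher. Of a list of 16 genes for the assembly of photosystem I and the cytochrome b6f complex, 3 had a probe of their own, and OTP70 (AT4G25270) was called lower. OTP70 is known as a pentatricopeptide repeat protein for splicing the plastid rpoC1 transcript, so it acts on plastid transcription and not directly on assembly. It averaged 0.407 ± 0.0955 in MS with sucrose and 0.507 ± 0.0479 in water (SD, n = 6 each), a log2 difference of -0.92 (SE 0.13, adjusted p = 0.000177 by limma). Without normalization OTP70 was at -0.29 and was not called (adjusted p = 0.0695 by limma). CCB3 (AT5G36120), which acts in haem attachment to cytochrome b6, was at 0.04 (SE 0.26, adjusted p = 0.951 by limma), and AT1G22700 at -0.27 (SE 0.11, adjusted p = 0.0865 by limma). Without normalization AT1G22700 turned to 0.41 and was called (adjusted p = 0.0130 by limma).

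Of 33 listed subunits of the photosystems and the electron transport chain, 3 had a probe of their own, and PSBW (AT2G30570), a small subunit of photosystem II, was called higher. Its intensity ran from 42.1 to 59.3 with a median of 48.9 in MS with sucrose, against 38.1 to 47.5 with a median of 44.9 in water. The log2 difference of PSBW was 0.63 (SE 0.09, adjusted p = 0.000163 by limma), but it was -0.53 (adjusted p = 0.00103 by limma) under median centring, so its direction depends on the scaling. PSBY (AT1G67740), also of photosystem II, was at -0.16 (SE 0.07, adjusted p = 0.0744 by limma), and PSAN (AT5G64040), of photosystem I, at -0.24 (SE 0.20, adjusted p = 0.389 by limma). Under median centring both were called lower, PSBY at -0.57 (adjusted p = 6.2e-05 by limma) and PSAN at -0.81 (adjusted p = 0.00334 by limma). PSBY was also called with the sample number as a replicate block (adjusted p = 0.0216 by limma).

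Over the 4 lists, 12 genes beside PIFI and LPA19 were measured, with 1 called higher, 1 lower and 10 not called. That is 2 of 12, where 37.1% of the probes of 1 gene were called. The count depends on the scaling: under median centring 6 of the 12 were called, all lower, where 50.3% of the probes of 1 gene were called, and without normalization 1 was called, higher, where 52.6% were. The differences of the 12 ran from -0.92 to 0.63 with a median of -0.17. LPA19 lay below and PIFI within that range, and PSBW alone of the 12 had a higher difference than PIFI.

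**Figure D4:**
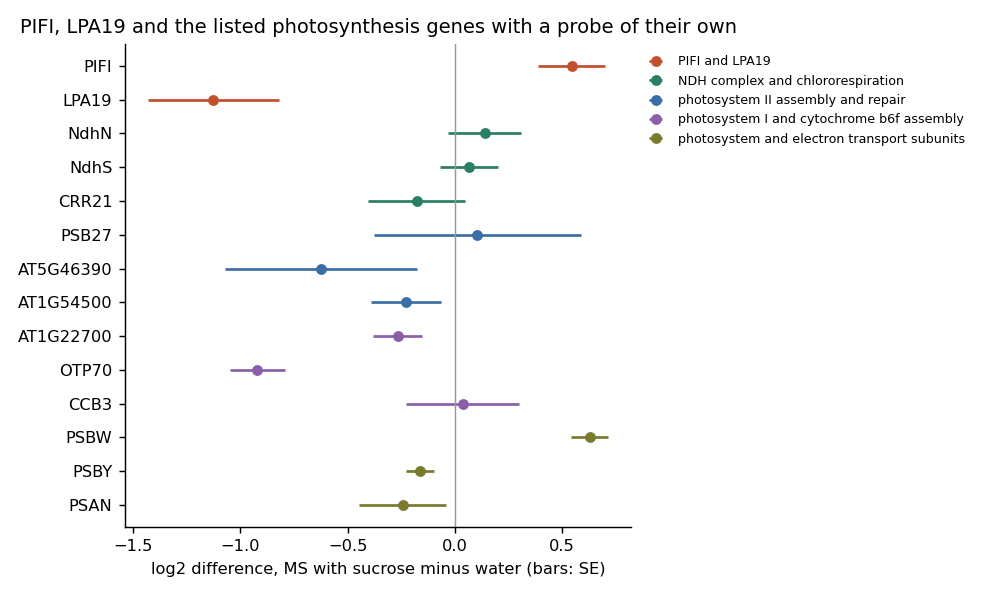
Log2 difference, MS with sucrose minus water, on the quantile-normalized scale (points) with its SE (bars), for PIFI, LPA19 and the 12 listed photosynthesis genes with a probe of their own, coloured by list. LPA19 lies furthest left at -1.13, and PSBW at 0.63 lies just right of PIFI at 0.54.

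Genes whose values moved most like PIFI or LPA19 within the groups were ranked by Pearson's r of deviations from the group means, over the 12 samples. These 12 points share the adjacent-number structure, and r is given as a description. Of 525 genes above 0 in every sample, AT5G65220 (r = 0.87, Spearman's rho = 0.79), AT5G10920 (r = 0.87, rho = 0.77), AT2G37880 (r = 0.86, rho = 0.70) and AT3G51320 (r = 0.85, rho = 0.62) were the most like PIFI. AT2G04700 was the most opposed (r = -0.88, rho = -0.77). The r with the first 4 was 0.90 to 0.97 in MS with sucrose and -0.44 to 0.37 in water; since PIFI varied more in MS with sucrose, those samples dominated the ranking, and the gap is built into the choice of genes. Genes alike within groups differed either way between them. AT5G65220, at 1.53 (SE 0.18), and AT5G10920, at 0.50 (SE 0.16), went the same way as PIFI at 0.54. AT2G37880, at -0.39 (SE 0.10), and AT3G51320, at -0.71 (SE 0.15, adjusted p = 0.00249 by limma), went the opposite way.

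For LPA19 the closest of 526 genes were AT5G05400 (r = 0.93, rho = 0.87), AT4G32340 (r = 0.93, rho = 0.94), AT5G43770 (r = 0.90, rho = 0.70) and AT2G47830 (r = 0.88, rho = 0.86). AT1G22040 was the most opposed (r = -0.94, rho = -0.81). In MS with sucrose r with the first 4 was 0.93 to 0.98, and in water it was 0.09 to 0.76, with the same caveat. Between groups, AT4G32340, at -0.14 (SE 0.14), and AT5G43770, at -0.36 (SE 0.28), went the same way as LPA19. AT2G47830, at 0.44 (SE 0.18), and AT5G05400, at 0.99 (SE 0.23, adjusted p = 0.00529 by limma), went the opposite way. Of these only AT5G05400 was called.

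**Figure D5:**
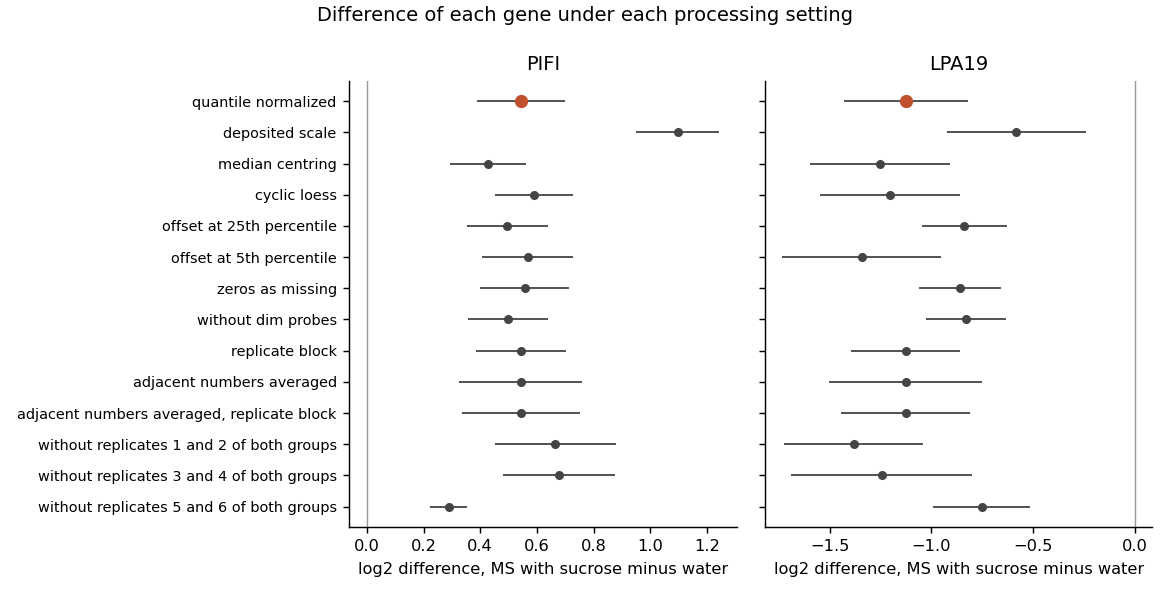
Log2 difference of PIFI and LPA19, MS with sucrose minus water (points, with SE as bars). Settings are the scalings, offsets, zeros as missing, filter, replicate block, adjacent numbers averaged and adjacent numbers left out. Fits that leave out 1 sample are not shown. With the replicate block and the averages the difference is the same by arithmetic, and only its SE can change. The red point is the quantile-normalized value. PIFI stays above 0, from 0.29 without numbers 5 and 6 to 1.10 on the deposited scale, and LPA19 stays below 0, from -1.38 without numbers 1 and 2 to -0.58 on the deposited scale.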

How the data were processed

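The series matrix of 12 samples gives 1 linear intensity per probe, as deposited by the authors; the sources used here do not give background subtraction, scaling or scanner. Of all values 13.6% were 0, and 2 to 8 probes a sample stood at a common maximum of 100. The number of arrays limits the precision. The members and gene lists were chosen with earlier results of these data known.

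Values were used as log2(intensity + offset) and quantile normalized, because the sample medians lay 0.76 apart, more than the 0.1 allowed. Each of 3439 probes was fitted with limma 3.58.1 in R 4.3.3 (lmFit, eBayes with trend, two-sided), with Benjamini-Hochberg adjustment over all probes and a threshold of 0.05. The labels do not say whether samples of a group were separate plants; the p-values reflect the spread among these samples only, and that spread may be technical. The fit was tested on simulated data. These were independent normal values without zeros or correlated samples, so the simulation cannot give the error rate in the real data. Figures were drawn with matplotlib 3.10.9.

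Probes were named from the platform annotation, updated through gene identifiers to the TAIR10.1 gene table (690 of 692 matched); 870 probes with several genes and 1877 unnamed here were not used by name. The genes named are PIFI, LPA19, every listed gene with a probe of its own, and, for PIFI and LPA19, the 4 genes most like and the 1 least like each within groups.

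Same-numbered samples of the 2 groups deviated together from their group means, at correlations across probes of 0.174 to 0.390 in the 6 pairs. The numbers were therefore taken to pair the samples in the same-numbered ratios and the replicate block. This comes from the data, not the labels. The main fit did not use the pairing, so its SEs and adjusted p ignore it. Adjacent numbers within a group also correlated, at 0.133 to 0.157 in MS with sucrose and 0.121 to 0.309 in water, so SEs and adjusted p from 12 separate samples may be too small. Alternatives were other scalings, offsets, zeros as missing, a filter on dim probes, the replicate block, adjacent numbers averaged, robust eBayes, and samples left out.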

Additional observations from a re-analysis of the deposited data

Results flagged for a closer look

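The 14 genes described gave 28 groups of 6 values, and 5 of these groups had a value far apart from the rest. About 1.4 would be flagged by chance, but both NdhN groups, mostly at 0, are among the 5, so the counts cannot show an excess. PIFI was lowest in water sample 4, at 0.343 against 0.406 in the next, a gap of 0.816 of the range. CRR21 was lowest in the same water sample, at 0.181 against 0.382 (0.693 of the range). PSBW was lowest in water sample 1, at 38.1 against 44.5 (0.687 of the range). NdhN was above 0 in sample 2 alone of each group, at 0.0830 in MS with sucrose and 0.00435 in water, which makes both gaps the whole range (1).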

How the results depend on the processing

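PIFI stayed above 0 and LPA19 below 0 under every alternative run. The replicate block and the averaging of adjacent numbers could not change this, as they leave the difference of group means as it was. PIFI moved by more than its replicate SD on the deposited scale alone, to 1.10. Leaving out 1 sample at a time gave 0.42 to 0.62 for PIFI and -1.31 to -0.88 for LPA19, with 1139 to 1283 probes called, 229 to 265 probes of 1 gene and 2 to 3 of the 12 listed genes. LPA19 depended on the offset, at -0.84 with the 25th percentile and -1.34 with the 5th, and was at -0.86 with zeros as missing, which drops its sample 5. The 1289 called probes became 751 with adjacent numbers averaged and 556 when these averages also had a replicate block, and the 257 of 1 gene became 151 and 108. With the sample number as a replicate block, PIFI was at 0.54 (SE 0.16) and LPA19 at -1.13 (SE 0.27), 1316 probes were called, and of the results described here PSBY alone changed its call. Of the 12 listed genes, 1 was called on the deposited scale, higher, and 6 under median centring, all lower, where 52.6% and 50.3% of the probes of 1 gene were called. The direction reversed with a call for AT1G22700 on the deposited scale (0.41), and under median centring for NdhN (-0.50), NdhS (-0.57) and PSBW (-0.53). It also reversed, without a call, for CRR21 (0.46), AT1G54500 (0.34) and PSBY (0.10) on the deposited scale. Under median centring PSB27 (-0.17) and CCB3 (-0.08) reversed without a call as well. The median of the differences of all probes was 0.38 on the deposited scale and -0.29 under median centring. PIFI and LPA19 have 1 probe each, so no second probe checks either value.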
